A study of Caenorhabditis elegans with 2 samples.

Results

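Peaks with their summit in a coding exon were examined in chromatin immunoprecipitation with sequencing (ChIP-seq) of CEH-8, a homeodomain protein of the nematode Caenorhabditis elegans. The members are 997 of the 6000 strongest peaks in the authors' pooled list, which was made from both replicates together and holds 30000 peaks. They were chosen by pooled signal and position. A member's summit lies in protein-coding sequence and outside the 1000 bp upstream of every protein-coding gene start, and summits in numbered cuticle collagen genes (col-N) were left out. The assay used whole L1 larvae of 6 hours, starved after bleaching, as 2 biological replicates of 1 group with both sexes pooled. All animals were of strain OP760, with the unc-119(tm4063) allele and the transgene wgIs760, which holds ceh-8::TY1::EGFP::3xFLAG and unc-119(+). The fusion was precipitated with an anti-GFP antibody. The labels do not state which sequence drives the fusion, and no strain without the tag is among the groups, so no comparison between conditions was possible. Signal is the authors' value for each peak relative to a control alignment. The sources used here do not give its scale, so signals rank peaks within a list. How deeply each replicate was sequenced is unknown here. Positions are on ce11, the same assembly as WBcel235.

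Homeodomain factors bind short AT-rich motifs and are mostly studied at promoters and enhancers. In the compact worm genome these elements commonly lie in intergenic sequence and introns, and coding exons are on average richer in G and C than the sequence between genes. CEH-8 belongs to the paired-like homeodomain class and is known from the RIA interneurons, which are few among the cells of a whole larva. The collagens and other glycine-rich proteins of the worm cuticle are encoded by stretches of GC-rich codons, because glycine, alanine and proline all have codons that begin with a pair of G or C bases.

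The windows below show what some of the stronger members are made of. In each set some members of higher pooled rank were left out, so the windows are examples and not the top of a ranking. Each is the 101 bp centred on a summit, read 5′ to 3′ on the coding strand from the RefSeq sequence of ce11. Capitals mark in-frame codons for glycine (GGN), alanine (GCN) and proline (CCN), codons cut by the window's end included, and a lower-case stretch may include intron. A peak is called strong in a replicate when the nearest summit of that replicate's own list lies within 200 bp of it and is among the 6000 strongest there. The first set holds strong members of the pooled list that were strong in replicate 1 only, and they are shown for their runs of capitals, least dense in ubc-15.
ram-2: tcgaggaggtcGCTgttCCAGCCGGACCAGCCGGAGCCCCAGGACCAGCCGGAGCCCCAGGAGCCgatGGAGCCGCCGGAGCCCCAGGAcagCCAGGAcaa
ubc-15: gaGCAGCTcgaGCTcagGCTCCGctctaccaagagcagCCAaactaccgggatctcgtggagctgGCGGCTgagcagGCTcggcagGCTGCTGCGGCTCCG
cyk-1: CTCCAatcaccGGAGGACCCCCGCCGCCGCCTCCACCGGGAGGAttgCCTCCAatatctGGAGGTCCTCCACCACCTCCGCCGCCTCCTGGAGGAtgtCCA
cut-2: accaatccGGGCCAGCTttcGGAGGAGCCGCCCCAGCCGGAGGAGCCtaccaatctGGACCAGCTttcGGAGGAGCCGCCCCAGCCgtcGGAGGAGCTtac
grl-25: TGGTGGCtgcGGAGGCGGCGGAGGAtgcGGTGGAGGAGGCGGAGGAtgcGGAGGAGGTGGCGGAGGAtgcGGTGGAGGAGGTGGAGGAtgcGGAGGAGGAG

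These windows are ram-2 at chrII:11015842-11015942 on the minus strand, ubc-15 at chrII:2903852-2903952 on the minus strand, cyk-1 at chrIII:7026028-7026128 on the minus strand, cut-2 at chrV:13415671-13415771 on the plus strand and grl-25 at chrIII:8962625-8962725 on the plus strand. The second set was strong in both replicates and is shown for the contrast in capitals. In this set rimb-1 alone carries many of them, at 54 of 101 bases, which is more than the 42 of ubc-15 above. Only 65 bases of the hmt-1 window and 90 of the F08G12.1 window are coding, and the rest cannot carry capitals.
pks-1: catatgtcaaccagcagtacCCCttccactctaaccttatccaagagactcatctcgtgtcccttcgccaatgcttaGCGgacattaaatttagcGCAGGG
hmt-1: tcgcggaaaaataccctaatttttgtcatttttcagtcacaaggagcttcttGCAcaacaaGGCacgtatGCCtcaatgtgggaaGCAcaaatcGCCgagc
rimb-1: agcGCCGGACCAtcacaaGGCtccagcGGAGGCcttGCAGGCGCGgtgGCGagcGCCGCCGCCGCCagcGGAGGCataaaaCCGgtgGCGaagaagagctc
F08G12.1: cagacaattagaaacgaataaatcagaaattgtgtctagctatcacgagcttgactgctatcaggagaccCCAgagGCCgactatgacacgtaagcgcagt

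The windows of this second set are pks-1 at chrX:5429497-5429597 on the plus strand, hmt-1 at chrIII:11091753-11091853 on the minus strand, rimb-1 at chrIII:1806315-1806415 on the plus strand and F08G12.1 at chrX:11304210-11304310 on the minus strand. The last set was strong in replicate 2 only.
F26F12.3: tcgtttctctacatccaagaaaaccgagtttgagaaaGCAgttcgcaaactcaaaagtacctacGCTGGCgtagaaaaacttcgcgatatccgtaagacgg
dep-1: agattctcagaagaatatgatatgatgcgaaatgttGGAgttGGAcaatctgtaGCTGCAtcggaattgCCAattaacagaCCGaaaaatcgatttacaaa
Y57A10A.27: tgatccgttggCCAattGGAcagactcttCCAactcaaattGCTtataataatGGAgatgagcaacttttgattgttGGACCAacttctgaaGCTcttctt
srg-39: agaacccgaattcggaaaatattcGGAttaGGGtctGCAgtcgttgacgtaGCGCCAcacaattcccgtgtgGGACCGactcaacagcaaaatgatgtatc

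They are F26F12.3 at chrV:5840646-5840746 on the minus strand, dep-1 at chrII:9007329-9007429 on the minus strand, Y57A10A.27 at chrII:12274783-12274883 on the minus strand and srg-39 at chrV:11151367-11151467 on the minus strand.

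Coding exon peaks were scarce at the top of the pooled ranking and common lower down. They made up 16.6% of the 6000 peaks, while coding sequence that could have held a member covers 21.7% of the genome. Of the 500 strongest pooled peaks 10 were members (2%), and of the next 500 there were 20 (4%). The share was 7.7% at ranks 1001 to 2000, 15.9% at ranks 2001 to 3000, 23.9% at ranks 3001 to 4000, 24.4% at ranks 4001 to 5000 and 24.8% at ranks 5001 to 6000. Promoter summits ran the other way, with 56.4% of the first 500 and 19.1% of ranks 5001 to 6000. The median pooled signal of members was 64.7, against 84.1 for 1804 promoter peaks, 70.3 for 1476 intron peaks and 72.2 for 1472 peaks outside genes. These signals took part in the choice of members and are a description. The members just inside the limit of 6000 were in smvt-1 and ncx-2, with a signal of 57.08 each at ranks 5995 and 6000. The coding exon summits just outside were in T14G8.3 and gly-12, with signals of 57.07 and 57.05 at ranks 6007 and 6010.

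**Figure D1:**
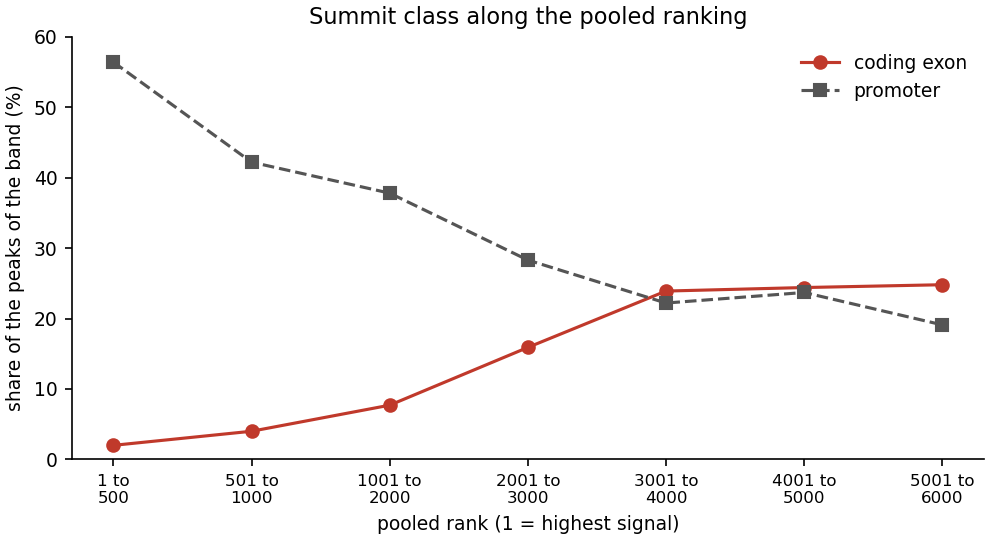
Share of pooled peaks (vertical axis, %) with the summit in a coding exon (circles, 997 in all) or a promoter (squares, 1804 in all), in 7 bands of pooled rank from strongest to weakest. Coding exons hold 2% of the first 500 peaks and 24.8% of the last 1000.

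Few members were strong in both replicates. That was the case for 145 of 997, or 14.5% (exact 95% interval 12.4% to 16.9%), against 52.8% of promoter peaks, 36.8% of intron peaks and 41.8% of peaks outside genes. Another 354 members (35.5%, interval 32.5% to 38.6%) were strong in replicate 1 only and 311 (31.2%, interval 28.3% to 34.2%) in replicate 2 only. The remaining 187 (18.8%) were strong in neither list on its own. For the other 5003 peaks the shares strong in a single list were lower, at 24.1% (replicate 1) and 21.8% (replicate 2). At any rank in the lists of 30000, 79 members had no replicate 1 summit within 200 bp (7.92%, against 5.9% of the other peaks). A replicate 2 summit was missing for 129 members (12.9%, against 8.04%). The intervals cover only the counting error over peaks taken as independent. The pooled peaks were called on the reads of both replicates, so these shares are not independent of how the members were chosen. Part of the gap to promoters goes with rank. At ranks 2001 to 3000, 34.6% of members and 41% of promoter peaks were strong in both, and at ranks 3001 to 4000 15.5% and 16.2%. Higher in the ranking the gap stayed wide, and the GC content of those members is given below. Among the 500 strongest the values were 40% of 10 members and 95.4% of promoter peaks. At ranks 501 to 1000 they were 20% of 20 members and 97.6%, and at ranks 1001 to 2000 42.9% of 77 members and 81.5%. Where a member was strong in both, the median distance of its summit was 14 bp to the replicate 1 summit and 19 bp to that of replicate 2. The replicate 1 peak was shared with another member for 4 members, as was the replicate 2 peak, and 6 pairs of members overlapped.

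**Figure D2:**
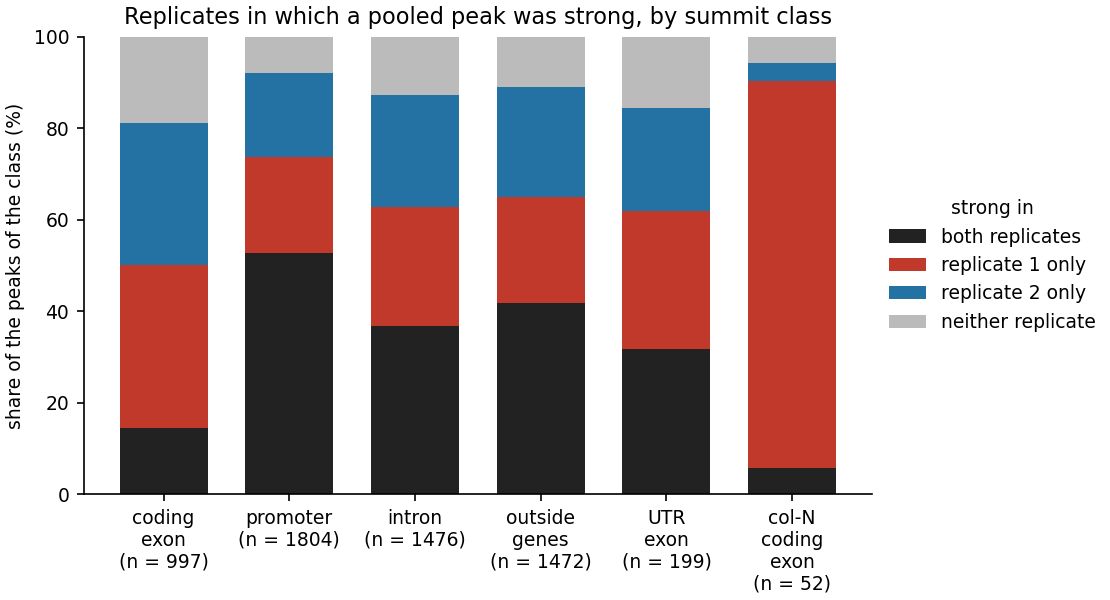
Share of pooled peaks (vertical axis, %) by the replicates in which they were strong (both, 1 only, 2 only or neither), for 6 classes of summit position with the number of peaks under each bar. Coding exon peaks are strong in both in 14.5%, and promoter peaks in 52.8%.

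The members strong in 1 replicate differed by replicate in base content. GC content was counted in the 101 bp window. Its median was 49.5% in the 354 members strong in replicate 1 only (lowest 28.7%, highest 77.2%), 43.6% in the 311 strong in replicate 2 only (28.7% to 60.4%), 45.5% in the 145 strong in both (27.7% to 70.3%) and 43.6% in the 187 strong in neither. Windows placed every 10 bp along eligible coding sequence had a median of 40.6%. The median was 45.5% over all members, 44.6% in promoter peaks, and 41.6% both in intron peaks and in peaks outside genes. The upper end was nearly all from replicate 1. Of the members 102 (10.2%, exact interval 8.42% to 12.3%) had a GC content of 60% or more, against 0.58% of eligible coding windows. Among the other 5003 peaks the share was 5.72%, with 5.38% of promoter peaks, 4.81% of intron peaks and 92.3% of col-N coding exon peaks. Of the 102 members, 94 were strong in replicate 1 only, 4 in both, 1 in replicate 2 only and 3 in neither. Their median rank was 834 in the replicate 1 list. Replicate 2 had no summit within 200 bp of 57 of them, and the other 45 had a median rank of 17626 there.

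The share of members strong in replicate 1 was 38% below 40% GC, 43.9% from 40% to under 50%, 55.1% from 50% to under 60% and 96.1% at 60% or more. In replicate 2 the shares were 53.2%, 51.6%, 44.4% and 4.9%. Promoter peaks of 60% GC or more were also mostly strong in replicate 1, with 91.8%, and less often in replicate 2, with 44.3% of 97. Intron peaks of that GC content stood at 91.5% and 39.4% of 71. The col-N coding exon peaks that the rule left out stood at 95.8% and 6.25% of 48. Leaving out the members of 60% GC or more, a choice made after seeing the data, gave 15.8% strong in both and 29.1% strong in replicate 1 only. Those shares are over all ranks, and the top of the pooled list was richer in GC. Of the 30 members at pooled rank 1000 or better, 8 were strong in both replicates. In 22 of the 30 the GC content was 60% or more, and of these 21 were strong in replicate 1 only and 1 in both. When the same rule was applied to each replicate's own 6000 strongest peaks, the replicate 1 list gave 1104 coding exon peaks, of which 160 (14.5%) had 60% GC or more. The replicate 2 list gave 1041, of which 11 (1.06%) did. What differed between the libraries in preparation or sequencing was not tested.

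**Figure D3:**
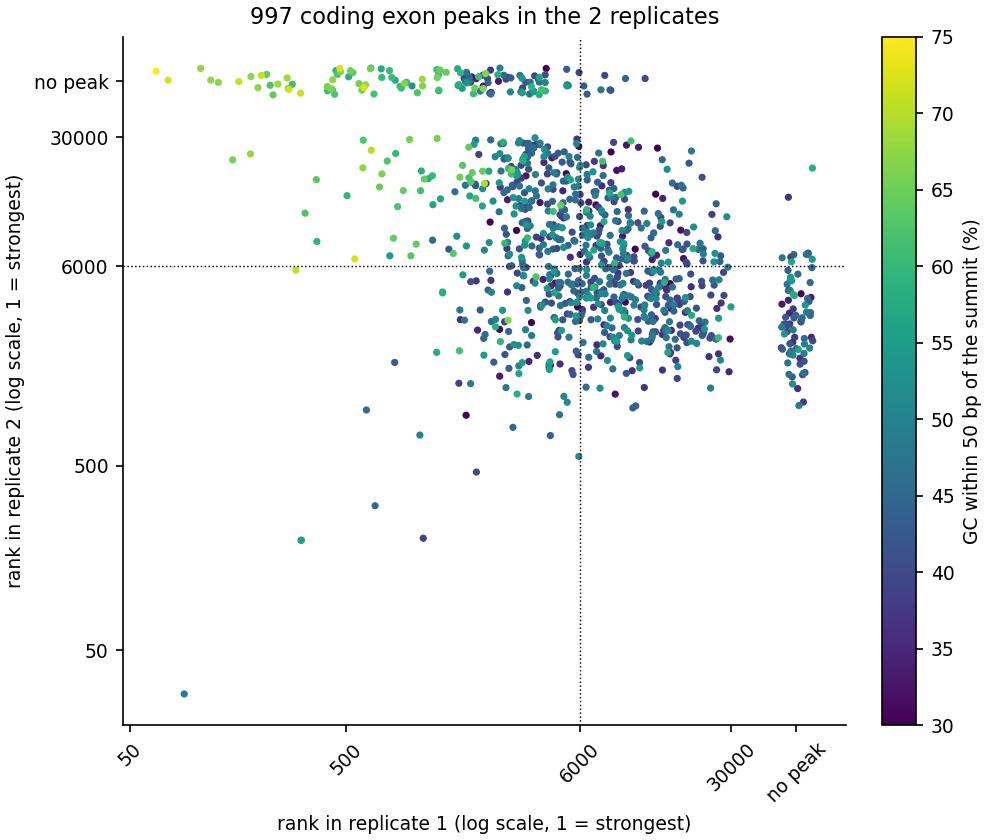
Rank of each of the 997 members in replicate 1 (horizontal, log scale) and in replicate 2 (vertical, log scale), with 1 as the strongest and members without a summit within 200 bp placed at the mark "no peak" with a small random offset. Colour gives GC content in %, and dotted lines stand at rank 6000. The GC-rich members lie at low rank numbers in replicate 1 and at high rank numbers or without a peak in replicate 2.

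**Figure D4:**
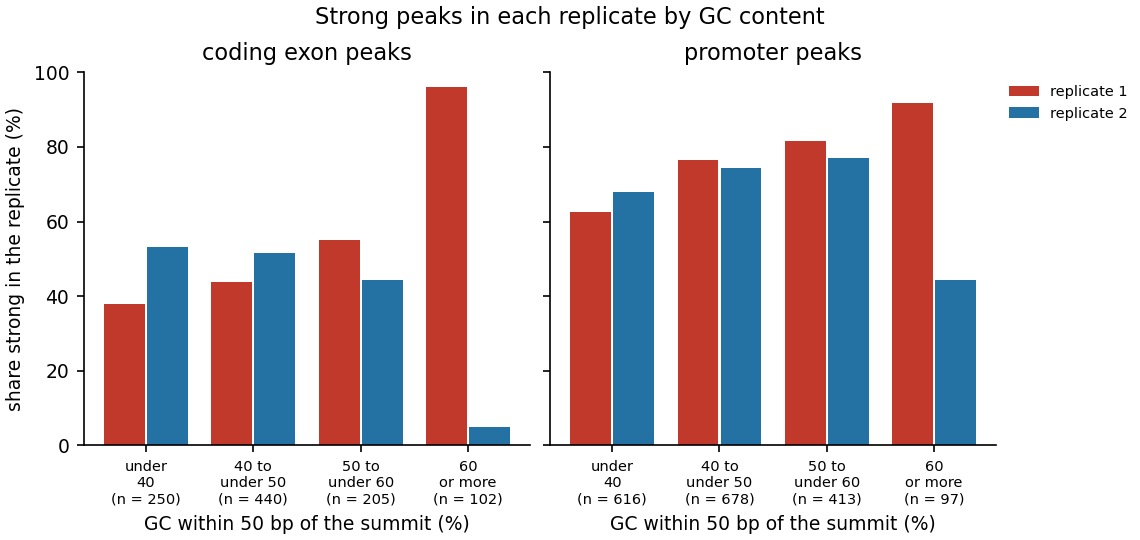
Share of peaks (vertical axis, %) strong in replicate 1 and in replicate 2, by GC content within 50 bp of the summit, for coding exon peaks (left) and promoter peaks (right), with the number of peaks under each pair of bars. At 60% GC or more the members stand at 96.1% and 4.9%, and promoter peaks at 91.8% and 44.3%.

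The GC-rich members lay in exons for glycine-, alanine- and proline-rich protein. Residues were counted in frame over the 15 codons to each side of the summit codon. In the 102 members of 60% GC or more, glycine averaged 17.3%, alanine 17.7% and proline 17.8% of residues. Over all proteins but those of col-N genes, at 1 isoform a gene, the shares were 5.27%, 6.33% and 4.85%. The sum of these residues ranged from 12.9% to 87.1% among the 102, and it was 50% or more in 57 of them (55.9%), against 16 of the 895 members of lower GC (1.79%). The codons of these amino acids are GC-rich by themselves, so the residues and the GC content are not separate observations. Across all 997 members Spearman's rho between them was 0.62, over peaks that share libraries. The median sum was 19.4% in members strong in both replicates, 22.6% in those strong in replicate 1 only, and 16.1% in those strong in replicate 2 only. All proteins but those of col-N genes together stood at 16.4%, which is a share over all residues and not a median of windows. The means of the 3 groups, a measure nearer to it, were 20.2%, 29.5% and 18.1% in the same order.

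**Figure D5:**
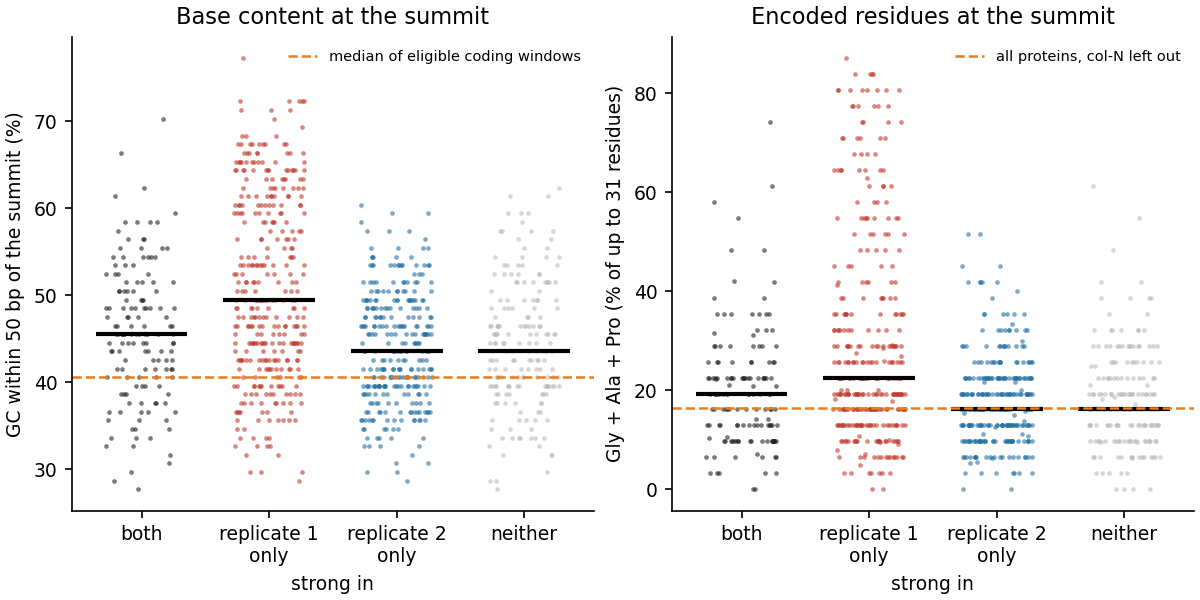
GC content (left, %) and the share of glycine, alanine and proline among the encoded residues (right, %) at the summit, for members strong in both replicates (n = 145), replicate 1 only (n = 354), replicate 2 only (n = 311) and neither (n = 187). Points are members and bars are medians. Dashed lines give the median of eligible coding windows (left, 40.6%) and the share in all proteins but those of col-N genes (right, 16.4%). The latter is taken over all residues and is not a median of windows.

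Of the 15 strongest members 10 were strong in replicate 1 only, 5 in both and 0 in replicate 2 only, and 11 had a GC content of 60% or more. The strongest of the replicate 1 group lay in exon 2 of F55A12.18 (I, 5341308 to 5341412, pooled signal 242, pooled rank 222). It ranked 66 in replicate 1 and had no replicate 2 summit, its GC content was 77.2%, and 77.4% of its residues were glycine. The peak in ram-2, a gene named for the abnormal male tail rays of its mutants, had a pooled signal of 212 at rank 313 (II, 11015717 to 11016066). It ranked 75 in replicate 1, had no replicate 2 peak, and lay in codons of which 83.9% were glycine, alanine or proline. A ubiquitin-conjugating enzyme gene, ubc-15, held the peak of pooled rank 358, which ranked 106 in replicate 1 and was not found in replicate 2. In ubc-15 glycine was absent from the window and alanine made up 32.3%. The formin gene cyk-1, needed for cytokinesis, held the peak of rank 393 in its exon 10 of 14 (III, 7026017 to 7026107, replicate 1 rank 118, no replicate 2 peak). Proline was 54.8% of its residues, and the window shown above runs through repeated CCN codons.

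Genes of the cuticle and of secreted glycine-rich proteins made up part of this group. The cuticlin gene cut-2, for a cuticle protein other than a collagen, ranked 547 in the pooled list, 180 in replicate 1 and 24297 in replicate 2. The hedgehog-related genes grl-25 and grl-23 had their strongest peaks at pooled ranks 597 and 606. These ranked 202 and 159 in replicate 1 and had no replicate 2 peak. Glycine made up 83.9% of the grl-25 residues and 87.1% of those of grl-23. Also among the strongest members were peaks in W09G12.6 and idpc-1, which are not assigned to these kinds of gene here. The peak in W09G12.6 ranked 493 in the pooled list, 149 in replicate 1 and 22560 in replicate 2. That in idpc-1 ranked 657, with rank 181 in replicate 1 and none in replicate 2. Each of these peaks stood high in replicate 1 and was low or absent in replicate 2.

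The strongest member of all was of another kind. It lay in exon 22 of 30 of pks-1, a polyketide synthase gene (X, 5429434 to 5429632, pooled signal 459, rank 45). It ranked 89 in replicate 1, with a signal of 200, and 29 in replicate 2, with a signal of 263. Its GC content was 48.5% and 9.68% of its residues were glycine, alanine or proline. The next members strong in both lay in Y18D10A.4 (I, 12815754 to 12816103, pooled rank 233), with ranks 309 and 197 in replicates 1 and 2, and in F13G3.3 (pooled rank 379), with ranks 1132 and 202. The Y18D10A.4 summit was 25 bp from the gene start, in exon 1. The peak in hmt-1, a transporter gene for heavy metal tolerance, lay in the last exon (III, 11091628 to 11091977, pooled rank 397) and ranked 678 and 303. Then came rimb-1, for a presynaptic RIM-binding protein, at pooled rank 683 with ranks 292 and 5715, and F08G12.1 at pooled rank 690 with ranks 618 and 999. The rimb-1 peak was the GC-rich one, with 70.3%, and its replicate 2 rank was close to the limit of 6000. Apart from it, these members had GC contents of 38.6% to 50.5%.

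Only 5 members had a replicate peak within the 1000 strongest of both lists: those in pks-1, hmt-1 and F08G12.1 and the pair in Y18D10A.4, which share 1 peak in each replicate. The second Y18D10A.4 member overlapped the first and ranked 2110. Over single lists, 74 members had a replicate 1 peak within the 1000 strongest, 59 of them of 60% GC or more, and 13 had a replicate 2 peak there, with 0 of that GC content. All 13 were strong in both replicates. They were picked out here after their values were seen. Besides the 5 above and F13G3.3, they include 2 genes of the presynaptic active zone, cla-1 (IV, 7612511 to 7612860) and syd-2, for liprin-alpha (X, 10553059 to 10553408). The cla-1 peak ranked 1092 in replicate 1 and 731 in replicate 2, and the syd-2 peak 1993 and 461. The insulin-like gene ins-26 had a peak in its exon 1, at ranks 5924 and 560.

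Members strong in replicate 2 only began lower in the pooled list. Named after their values were seen, the 2 strongest lay in F26F12.3 and dep-1. That in F26F12.3 stood at pooled rank 1777 (V, 5840521 to 5840870), with rank 10857 in replicate 1 and 1051 in replicate 2. That in dep-1, a receptor tyrosine phosphatase gene, stood at pooled rank 1834, with ranks 11889 and 1322. With no replicate 1 summit at any rank, the strongest were in efsc-1 (pooled rank 1903, replicate 2 rank 1382), Y57A10A.27 (2073 and 1592), the chemoreceptor gene srg-39 (2231 and 1056) and the ammonium transporter gene amt-3 (2327 and 2920). The GC contents of these 4 ran from 38.6% to 51.5%. Their highest pooled signal was 87.7, well under the 242 of the strongest member without a replicate 2 peak.

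The members fell in 917 of 19817 protein-coding genes with col-N left out, which is 4.63% of those genes. Of these, 849 held 1 member, 59 held 2, 7 held 3, 1 held 4 and 1 held 5. The gene with 5 was vab-10, for a spectraplakin that links cytoskeleton and cell junctions (I). Its peaks had pooled ranks of 2203 to 5927, and 0 of the 5 were strong in both replicates, against 14.5% of all members. The strongest, in exon 21 of 22, ranked 431 in replicate 1 and had no replicate 2 peak. The gene with 4 was pks-1. Its other peaks ranked 4080, 4184 and 4458 in the pooled list, far below the first, with 2 strong in replicate 2 only and 1 in neither. With 3 each there were the chromatin remodeller gene chd-7, the death-associated protein kinase gene dapk-1, the CCR4-NOT subunit gene ntl-3, the perlecan gene unc-52, grl-25 and rimb-1, and also xrn-1, an exoribonuclease gene. In dapk-1 1 of the peaks was strong in both replicates (pooled rank 2023, ranks 3361 and 2717). In grl-25 all 3 were strong in replicate 1 only, and their summit windows had 59.4% to 71.3% GC.

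Gene lists were compared by members per Mb of eligible coding sequence, which was 45.8 over all genes. These are counts and were not tested. The list of glycine-rich, hedgehog-related and antimicrobial gene families had 15 members in 12 of 262 genes (109 per Mb), of which 11 were strong in replicate 1 only and 1 in both. The glutamine- and asparagine-rich pqn and abu genes had 9 members in 8 of 70 genes (79.8 per Mb), led by pqn-75 (pooled rank 1065, replicate 1 rank 269, no replicate 2 peak). The pqn-16 peak was strong in both replicates (ranks 2730 and 1321). The list of 24 named collagen genes other than col-N had 4 members in 4 genes (113 per Mb), of which 3 were strong in replicate 1 only and 1 in replicate 2 only. The cuticle collagen gene dpy-9, at pooled rank 3686, was among the 3, and the type IV collagen gene emb-9, at rank 4614, held the other. This list does not hold ram-2, whose window shown above repeats glycine codons at regular intervals, so it may miss collagens. The 2 members in ram-2, at pooled ranks 313 and 2711, were strong in replicate 1 only. Chromatin regulators had 8 members in 7 of 33 genes (69.7 per Mb). Their strongest was in swsn-1, for a SWI/SNF subunit, a member of 66.3% GC that was strong in both replicates (ranks 2789 and 3057). The Mi-2 gene let-418 (pooled rank 2784, strong in replicate 2 only) and the dosage compensation gene dpy-21 (pooled rank 3229, replicate 1 only) followed.

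Long genes of muscle and matrix held members at moderate density. Sarcomere genes had 10 in 9 of 33 genes (61.4 per Mb), with 0 strong in both replicates, against 14.5% of all members. On so few members no difference from that share can be read. The strongest lay in unc-22, for the giant protein twitchin, at pooled rank 2408, in unc-95 at rank 2770 and in the troponin T gene tnt-2 at rank 3672. Extracellular matrix genes had 12 members in 6 of 25 genes (62.3 per Mb). The nidogen gene nid-1 held the only one strong in both (pooled rank 1876, ranks 1671 and 3474), and mua-3 the one of rank 3682. Translation factors and tRNA synthetases had 5 members in 5 of 68 genes (58 per Mb), of which those in kars-1 (ranks 2295 and 5633) and fars-1 (ranks 835 and 1807) were strong in both. Among 40 genes of RNA polymerase II and splicing 4 held a member (116 per Mb), led by rsp-8, an SR splicing factor gene (pooled rank 1908, ranks 2158 and 1979). The heat shock list had 2 of 22 (108 per Mb), with hsp-1 strong in both and hsp-110 in replicate 2 only. Ribosomal protein genes had 2 of 81 (132 per Mb), in rla-1 and rps-2, and histones 1 of 72 (456 per Mb), in the linker histone gene his-24. These last 3 peaks were strong in replicate 1 only. With promoter intervals taken out, 15203 bp of ribosomal protein and 2193 bp of histone coding sequence were eligible. The RNA polymerase II, heat shock, ribosomal protein and histone densities exceed the 45.8 over all genes, on 1 to 4 members each.

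Chemoreceptor, F-box and lectin families held members at low density. Chemoreceptor genes had 19 in 1308 genes (16.8 per Mb), led by srab-17 (pooled rank 1745, ranks 1653 and 1394, strong in both). F-box, MATH and BTB genes had 6 in 412 (17.9 per Mb), with fbxa-38 first at pooled rank 4290, and C-type lectins 4 members in 3 of 240 genes, with clec-19 first at rank 5062. None of these 10 was strong in both replicates, against 14.5% of all members, and on so few members no difference from that share can be read. Nuclear hormone receptors were nearer to the density over all genes, with 11 members in 11 of 274 genes (36.7 per Mb), and nhr-6 held the strongest, at pooled rank 1522 (ranks 3472 and 1182). The homeobox list had 0 members in 84 genes with 78291 bp eligible, the RIA interneuron list 0 in 7 with 9819 bp, and the major sperm proteins 0 in 31 with 7215 bp. The last 2 lists hold too little eligible sequence for a count of 0 to differ from the density over all genes. Whether the homeobox count of 0 differs from that density was not tested. Coding GC was 37.3% in chemoreceptors, 38.9% in F-box, MATH and BTB genes, 43.9% in C-type lectins, 44% in homeobox genes and 51.1% in major sperm proteins, against 42.8% over all genes. Whether density goes with coding GC was not tested. Within 20000 bp of ceh-8 itself 2 members were found, in nol-16 (pooled rank 3493, strong in both) and nsph-2 (rank 5032, replicate 1 only). Both are named for their position, outside the naming rule given below.

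Members lay along the whole gene. The median position was 54.8% of the way from gene start to gene end, and 17.4% of members were within 500 bp of the gene start, against 17.7% of eligible coding bases. Upstream of another annotated transcript start, within 1000 bp, were 40 members (4.01%), against 2.87% of eligible bases. Exons of 1000 bp or more held 12% of members and 8.88% of eligible bases. The exon at the summit had a median length of 658.5 bp in members of 60% GC or more, 479 bp in those strong in replicate 1 only, and 342 bp in those strong in both or in replicate 2 only. A median of 81.1% of a member's peak was coding, with 86% for replicate 1 only and 73.4% for both. By chromosome the density was 58 members per Mb of eligible coding sequence on III, 51.4 on I, 44.9 on IV, 44.4 on X, 41 on V and 38.1 on II. At 8 summits an exon of a non-coding RNA overlapped the coding exon, and such a pair cannot be told apart by position.

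Short motifs were sought on both strands within 50 bp of the summit. TAATTA, which paired-like homeodomain proteins typically bind, was in 15 members (1.5%, exact interval 0.844% to 2.47%), against 2.26% of eligible coding windows and 4.77% of promoter peaks. Of those 15, 0 were among the 145 strong in both replicates, with an exact 95% upper limit of 2.51%, and 8 were strong in replicate 2 only. The strongest, named after its value was seen, lay in srm-2 at pooled rank 2476. The variant TAATTG was in 4.91% of members and 6.7% of eligible windows. GAGAGA was in 6.22% of members (interval 4.8% to 7.9%) and 5.22% of eligible windows, but in 17.7% of promoter peaks, and it was in 9.66% of members strong in both (interval 5.38% to 15.7%). GGAGGA, which in frame reads as a pair of glycine codons, was in 10.8% of members and 6.23% of eligible windows. It was in 18.6% of members strong in replicate 1 only and in 35.3% of those of 60% GC or more. CCGCCC was in 3.11% of members and 1.29% of eligible windows, and CAGCTG in 5.02% and 3.36%. Motif shares move with base content, and a match is not a binding site.

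Few members lay in repeated sequence. A 36-base word that occurs more than once in the genome was found in the windows of 17 members (1.71%, exact interval 0.996% to 2.72%), against 3.49% of promoter peaks, 6.03% of intron peaks and 7% of peaks outside genes. Of these, 11 were strong in replicate 1 only and 3 in both. In 1 member, in Y54G11A.4 at pooled rank 5650, every 36-base word was repeated. The most copies were 19, in Y54G11A.14 at rank 983. These 2 were named after their values were seen. None of the 15 strongest members held such a word.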

How the data were processed

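ChIP-seq peaks of 2 biological replicates of 1 group were used. Per the file headers, the authors called peaks on ce11 for each replicate and for both replicates together against a control alignment, and derived an optimal IDR (irreproducible discovery rate) list from these 3 lists. Each deposited list gives a signal value and a −log10 q-value per peak, both the authors' own, and no result here rests on the q-values. The sources used here give neither the peak caller nor the aligner nor the scale of the signal. The IDR list holds 1891 peaks, which are the 1891 strongest of the pooled list, so membership in it adds nothing to pooled rank.

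Summits were set beside Ensembl release 115 gene models of WBcel235, the same assembly as ce11. A summit in several classes was counted as promoter first, then as coding exon. Replicate lists were matched to a member by the nearest summit within 200 bp, and strong means the 6000 strongest of that list. GC content and motifs were read in 101 bp windows, residues in 31 codons of the longest coding isoform at the summit (39 members had fewer codons in the window), and repeated words as 36-mers on both strands of the genome. Eligible coding sequence was cut into 2178701 windows every 10 bp. Shares have exact (Clopper-Pearson) 95% binomial intervals, which cover counting error over peaks only. Read depth per sample is unknown from these files. With 1 group, no test was made.

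Genes were named by a rule: the 15 strongest members, the 6 strongest of those strong in both replicates, the 4 strongest with a peak in only 1 replicate, for each replicate, genes with 3 or more members, the members beside the limit of 6000, and up to 3 genes per list. The rule capped the number of genes with 3 or more members, but all of them are named here. The members and the lists were chosen with earlier results of these data known, and other genes named outside the rule are said to be. One of the 15 strongest members is counted but not reported by itself here. Of the listed names 1, ram-4, matched no gene. Python 3.11.15 with numpy 2.4.6, pandas 2.3.3, scipy 1.17.1 and matplotlib 3.10.9 was used. The class and matching steps were tested on simulated peaks with known answers.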

Additional observations from a re-analysis of the deposited data

How the results depend on the processing

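Of 48 alternative values for 7 results, 29 stayed within the counting interval of the reported value, within 1.5 times a count, or, for GC content, within the spread of the single replicate lists (SD 2.1 percentage points). The other 19 moved, and the cause was not tested except where the alternative's own construction shows it. The 3000 strongest pooled peaks gave 266 members, 36.1% strong in both replicates, 43.2% in replicate 1 only and a median GC content of 50.5%. The IDR list gave 96 members, 37.5%, 60.4% and 60.9%. With the rule applied to a single replicate list, the count was 1041 to 1104 and the median GC content 43.6% to 46.5%. Matching within 100 bp gave 11.6% strong in both. With all rows of each replicate counted as strong, 79.1% were in both and 12.9% in replicate 1 only, and with the 3000 strongest of each, 3.11% and 21%. Over the whole peak the median GC content was 43.1%. Wider windows, of 100 bp to each side, held TAATTA in 3.51% and GAGAGA in 11% of members. Repeated words were in 0.602% with 50-mers and 5.92% with 24-mers. Without members of 60% GC or more, added after seeing the data, 29.1% were strong in replicate 1 only. No paired analysis was possible because both replicates form 1 group and no test was made. Read depth is unknown, so a member without a replicate peak is one not listed among the 30000, not one shown to lack signal.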
